A study of Mus musculus with 7 samples.

Results

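The genes described here are 9 mouse genes of bone mineralization: Alpl, Ibsp, Spp1, Bglap, Phex, Dmp1, Mepe, Enpp1 and Mgp. They are 9 of the 42689 genes measured in the series. They were chosen by name and on measured values, because earlier results of these libraries had shown that some were higher and others lower at a tenotomy site. Their values are therefore given as a description, with no p-values of their own, and calls are given only as each gene's side of the threshold used for all genes. At the tenotomy site Enpp1 and Mgp were higher than in contralateral tendon and Ibsp and Alpl were lower, while Spp1 stood about 4-fold higher without passing the threshold used for all genes. Bglap, Dmp1 and Mepe were below the filter on low counts.

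RNA of hindlimb tendon was sequenced in 7 libraries from mice of C57BL/6 background, in a study of the kinase TAK1 and heterotopic ossification, the formation of bone in soft tissue. Injured mice had received a partial-thickness burn of the back, from an aluminium block at 60 °C held for 18 s on 30% of the body surface, and at the same time a cut through the middle of 1 Achilles tendon. The tenotomy group (n = 2) was the injured left leg 3 weeks later, and the contralateral group (n = 3) was the right leg of such mice, which had the burn but no cut. The uninjured group (n = 2) came from mice called wild-type in the labels, with neither burn nor tenotomy. The tissue taken lay between the insertion in the gastrocnemius muscle and the attachment to the heel bone. The labels give no age, sex or TAK1 allele for these libraries, do not tie tenotomy and contralateral libraries to the same mouse, and do not say whether libraries of a group came from separate animals. The spread between libraries used in every test may thus be technical.

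Mineral forms in bone when phosphate and calcium crystallise on a collagen matrix. Pyrophosphate blocks crystal growth: Enpp1 makes it outside the cell and Alpl, tissue-nonspecific alkaline phosphatase, breaks it down to phosphate. Matrix proteins act as well. Bone sialoprotein, encoded by Ibsp, can nucleate mineral, whereas osteopontin (Spp1) and matrix Gla protein (Mgp) restrain it. Dmp1, Mepe and Phex are known from osteocytes, the cells embedded in bone, and act on mineral and on blood phosphate. In injured tendon, bone commonly forms through a cartilage stage.

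Libraries held 25927171 to 36725106 estimated counts, of which 76.4% to 81.4% fell on 5 features, leaving 4934057 to 8375626 counts for all others. Values below are CPM, the counts of a gene scaled to a common library total after adjustment with trimmed means of M values (TMM). Over the log2 CPM of all 16028 genes tested, the uninjured library numbered replicate 1 was nearest to the tenotomy libraries (distances of 59.6 and 61.1, against 124.9 or more to contralateral ones). The uninjured library numbered replicate 2 was nearest to the contralateral libraries (64.5 to 67.4, against 121.2 or more to tenotomy ones). Within groups, the tenotomy libraries were 54.5 apart and the contralateral libraries 56.7 to 65.2, whereas the uninjured libraries were 114.0 apart. Replicate numbers follow accession order. For the members, the values of both uninjured libraries are therefore given singly, and fold changes against the group are also given without each. No pair of libraries agreed within sampling noise.

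The stretches just upstream of the start sites of 4 genes are shown because among the members tested these genes had the largest differences in each direction, Ibsp and Alpl lower and Enpp1 and Spp1 with higher values at the tenotomy site. Sequences are from RefSeq (GRCm38.p6), 5′ to 3′ on the strand of the gene. Capitals mark the core sequence bound by RUNX factors (ACCACA, or TGTGGT on the other strand) and the CCAAT box (CCAAT, or ATTGG).
Spp1 (chr5:104434861-104435110, plus strand): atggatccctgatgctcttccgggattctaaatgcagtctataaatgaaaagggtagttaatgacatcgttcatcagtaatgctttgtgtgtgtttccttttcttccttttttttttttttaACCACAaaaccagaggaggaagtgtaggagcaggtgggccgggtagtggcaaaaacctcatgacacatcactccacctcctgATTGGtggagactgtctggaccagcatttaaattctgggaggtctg
Ibsp (chr5:104299037-104299170, plus strand): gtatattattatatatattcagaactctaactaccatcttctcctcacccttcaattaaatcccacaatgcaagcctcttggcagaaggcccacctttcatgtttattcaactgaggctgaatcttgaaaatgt
Enpp1 (chr10:24712160-24712409, minus strand): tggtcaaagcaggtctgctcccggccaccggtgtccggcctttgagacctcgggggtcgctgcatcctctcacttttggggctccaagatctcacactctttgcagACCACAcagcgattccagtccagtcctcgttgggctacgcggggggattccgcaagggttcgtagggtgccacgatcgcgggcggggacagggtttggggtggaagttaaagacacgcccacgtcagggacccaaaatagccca
Alpl (chr4:137796385-137796634, minus strand): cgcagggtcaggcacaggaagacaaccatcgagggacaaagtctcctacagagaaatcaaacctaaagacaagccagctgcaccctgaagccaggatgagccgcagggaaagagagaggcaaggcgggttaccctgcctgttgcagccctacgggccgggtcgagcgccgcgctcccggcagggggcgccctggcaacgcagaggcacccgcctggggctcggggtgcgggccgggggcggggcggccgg

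The table of promoter sequences held 8 of the 9 genes, all but Mgp. The Spp1 window of 250 bases held 1 RUNX core and 1 CCAAT box, and the Enpp1 window held 1 RUNX core. The printed Ibsp stretch of 134 bases ends where the GENCODE transcript begins and held neither, but the rest of the Ibsp window of 250 bases, up to the RefSeq start, held 1 CCAAT box. The Alpl window held neither. Of 32851 upstream windows of 250 bases, 14.0% held a RUNX core and 33.8% a CCAAT box on either strand. The AP-1 sequence TGANTCA was in 6.75% of windows and in 0 of the members' windows. Single RUNX cores were also found upstream of Bglap and Dmp1, and 2 upstream of Mepe, and each of these 3 windows also held 1 CCAAT box. The Phex window held neither a RUNX core nor a CCAAT box. Base composition also differed between the windows. GC content was 68.4% for Alpl and 61.2% for Enpp1 but 43.6% for Spp1 and 43.6% for Ibsp, against a median of 52.4% over all windows. CpG dinucleotides numbered 20 and 17 in the windows of Alpl and Enpp1 and 3 and 2 in those of Spp1 and Ibsp, with a median of 6 over all windows. A match of letters is a description and not a bound site.

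RNA of the genes of pyrophosphate balance was examined first. Enpp1 (ENSMUSG00000037370.13; chromosome 10, 24637914 to 24712159, minus strand, GRCm38) is the ectoenzyme that makes pyrophosphate from nucleotides. It was at 3.71, 3.50 and 2.35 CPM in the contralateral libraries and at 15.1 and 14.2 CPM in the tenotomy libraries. The uninjured libraries held 12.4 and 3.48 CPM. Both tenotomy libraries exceeded every other library, and uninjured replicate 1 stood close below them. Group means were 3.19 ± 0.732 CPM (SD, n = 3) in contralateral and 14.6 ± 0.638 CPM (SD, n = 2) in tenotomy tendon, a log2 fold change of 2.20 (SE 0.46). This passed the threshold of the fit over all genes (edgeR's quasi-likelihood test, adjusted p-value under 0.05), which called 13.6% of genes higher. The ratio of summed counts was 4.63 (95% exact interval 4.07 to 5.29, which, like the other intervals of count ratios, covers counting error only).

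Alpl (ENSMUSG00000028766.10; chromosome 4, 137741733 to 137796384, minus strand) encodes the phosphatase that removes pyrophosphate. It was at 0.974, 1.51 and 1.52 CPM in contralateral tendon, from 26, 53 and 49 counts, and at 0.490 and 0.300 CPM at the tenotomy site, from 18 and 9 counts. The uninjured libraries held 0.611 and 0.860 CPM and lay between the other groups without overlapping either. Alpl was lower at the tenotomy site by a log2 fold change of -1.73 (SE 0.34) and was called, in a fit that called 15.4% of genes lower. With TPM scaled by gene length in place of counts, its log2 fold change was -2.19 and it missed the threshold. TPM weighs counts on short transcripts more. In contralateral replicate 1, 1 Alpl count on a transcript of 348 bases made up 0.0468 of 0.145 TPM. In uninjured replicate 2, which is in neither group of this comparison, 0.713 Alpl counts on a transcript of 151 bases made up 0.1559 of 0.219 TPM. The part of short transcripts in the missed threshold was not tested. RNA of Enpp1, whose enzyme makes pyrophosphate, and RNA of Alpl, whose enzyme removes it, thus differed in opposite directions. Enzyme activity and pyrophosphate were not tested. In contralateral over tenotomy tendon, the ratio of summed Alpl counts was 3.36 (95% exact interval 2.21 to 5.3).

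Of the matrix proteins that restrain crystals, Mgp (ENSMUSG00000030218.2; chromosome 6, 136872435 to 136875823, minus strand) encodes a small vitamin K-dependent inhibitor of calcification. It was at 13.9, 13.7 and 10.5 CPM in contralateral tendon, at 31.9 and 31.0 CPM at the tenotomy site and at 35.3 and 14.7 CPM in the uninjured libraries. Both tenotomy libraries lay above every contralateral library, but uninjured replicate 1 held the highest level of all 7. Against contralateral tendon Mgp was higher, with a log2 fold change of 1.31 (SE 0.34), and it was called. The ratio of summed counts was 2.49 (95% exact interval 2.32 to 2.68).

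Spp1 (ENSMUSG00000029304.14; chromosome 5, 104435118 to 104441050, plus strand) encodes osteopontin, a phosphorylated matrix protein also made by macrophages and osteoclasts. It was at 9.63, 13.9 and 9.56 CPM in contralateral tendon and at 47.9 and 47.8 CPM at the tenotomy site. The uninjured libraries, at 41.5 and 5.02 CPM, spanned most of the range of the gene. The tenotomy libraries were the highest of all 7, and the log2 fold change against contralateral tendon was 2.11 (SE 0.68), which the fit of 7 libraries did not call. When the contralateral and tenotomy groups were fitted alone, Spp1 was called along with the other 4, as 5 of 6 members tested, while that fit called 46.1% of all genes. The ratio of summed counts was 4.27 (95% exact interval 3.98 to 4.58). Most of the gene's counts, 84.9% to 92.2% in every library, came from 1 of its transcripts.

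Ibsp (ENSMUSG00000029306.8; chromosome 5, 104299171 to 104311469, plus strand), which encodes bone sialoprotein, differed most among the members. The contralateral libraries held 224, 203 and 130 counts, or 8.40, 5.78 and 4.02 CPM. Both tenotomy libraries held 3 counts, or 0.0816 and 0.100 CPM, and the uninjured libraries 17 and 69 counts, or 0.611 and 2.37 CPM. The tenotomy values equal the floor of 3 counts used here, so the size of differences from the tenotomy site is loosely set. All tenotomy values lay below all uninjured values, which in turn lay below all contralateral values. The log2 fold change at the tenotomy site was -6.01 (SE 0.77) and was called. In summed counts, contralateral tendon held 65.8 times as much as the tenotomy site (95% exact interval 30.1 to 180), and uninjured tendon 16.8 times as much (7.42 to 47.1), which was 6.8 times with uninjured replicate 1 alone (2.56 to 21.1) and 26.4 times with replicate 2 alone (11.5 to 74.5). Spp1 and Ibsp, whose start sites lie 136 kb apart in 1 cluster of related matrix genes, thus had values in opposite directions.

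The other genes of that chromosome 5 cluster gave no common direction. Dmp1 (ENSMUSG00000029307.7; 104202613 to 104214102), a matrix protein of osteocytes and dentin, had 4, 5 and 8 counts in contralateral, 12 and 5 in tenotomy and 5 and 6 in uninjured libraries. It was below the filter on low counts, and the ratio of tenotomy to contralateral counts was 1.41 (95% exact interval 0.677 to 2.94). Mepe (ENSMUSG00000053863.3; 104325329 to 104338611), an osteocyte phosphoglycoprotein, had 0 counts in every library, which with 3 counts as the floor allows up to 0.0816 to 0.112 CPM. Dspp, a dentin gene just beside them, had 1 to 6 counts. At the edges of the cluster, the log2 level of Sparcl1 fell by 0.86 (SE 0.23, edgeR adjusted p = 0.0304), and Pkd2 was higher by 1.00 (SE 0.18, edgeR adjusted p = 0.0167).

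Bglap (ENSMUSG00000074483.2; chromosome 3, 88383501 to 88384464, minus strand) encodes osteocalcin, a late product of osteoblasts. It had 0 counts in all contralateral libraries, 0 and 1 in the tenotomy libraries and 2 and 0 in the uninjured libraries. Its near-identical copies Bglap2 and Bglap3 had 0 to 1 and 4 to 10 counts, so counts may be split between the copies. Summed over all 3 copies there were 4 to 11 counts per library, below the filter, and the difference between groups was not detectable at this depth.

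Phex (ENSMUSG00000057457.11; chromosome X, 157162075 to 157415312, minus strand) encodes an endopeptidase of osteoblasts and osteocytes that acts on phosphate balance. It was at 0.787, 0.626 and 0.742 CPM in contralateral, 0.789 and 0.933 CPM in tenotomy and 1.19 and 0.860 CPM in uninjured tendon. Tenotomy and contralateral values nearly touched, and the log2 fold change of 0.26 (SE 0.25) was not called. The ratio of summed counts was 1.2 (95% exact interval 0.828 to 1.73). By transcript, a longer form of 6265 bases took 28.5% and 30.7% of Phex counts at the tenotomy site, 10.7%, 0% and 9.41% in contralateral and 14.8% and 17.6% in uninjured libraries, while a form of 3588 bases took 57.6% to 95.4%. Such shares rest on 21 to 33 counts per library. For Enpp1, a transcript annotated as a retained intron took 11.7% and 9.9% of counts at the tenotomy site, 26.1% to 33.4% in contralateral tendon and 16% and 37% in the uninjured libraries. Another retained-intron transcript of Enpp1 took 3.86% and 2.73% at the tenotomy site, from 21.4 and 11.6 estimated counts, and 0% in all other libraries. The contralateral libraries and uninjured replicate 2 held only 76 to 123 Enpp1 counts, so a share this small could go unseen there. Uninjured replicate 1 held 346.

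**Figure D1:**
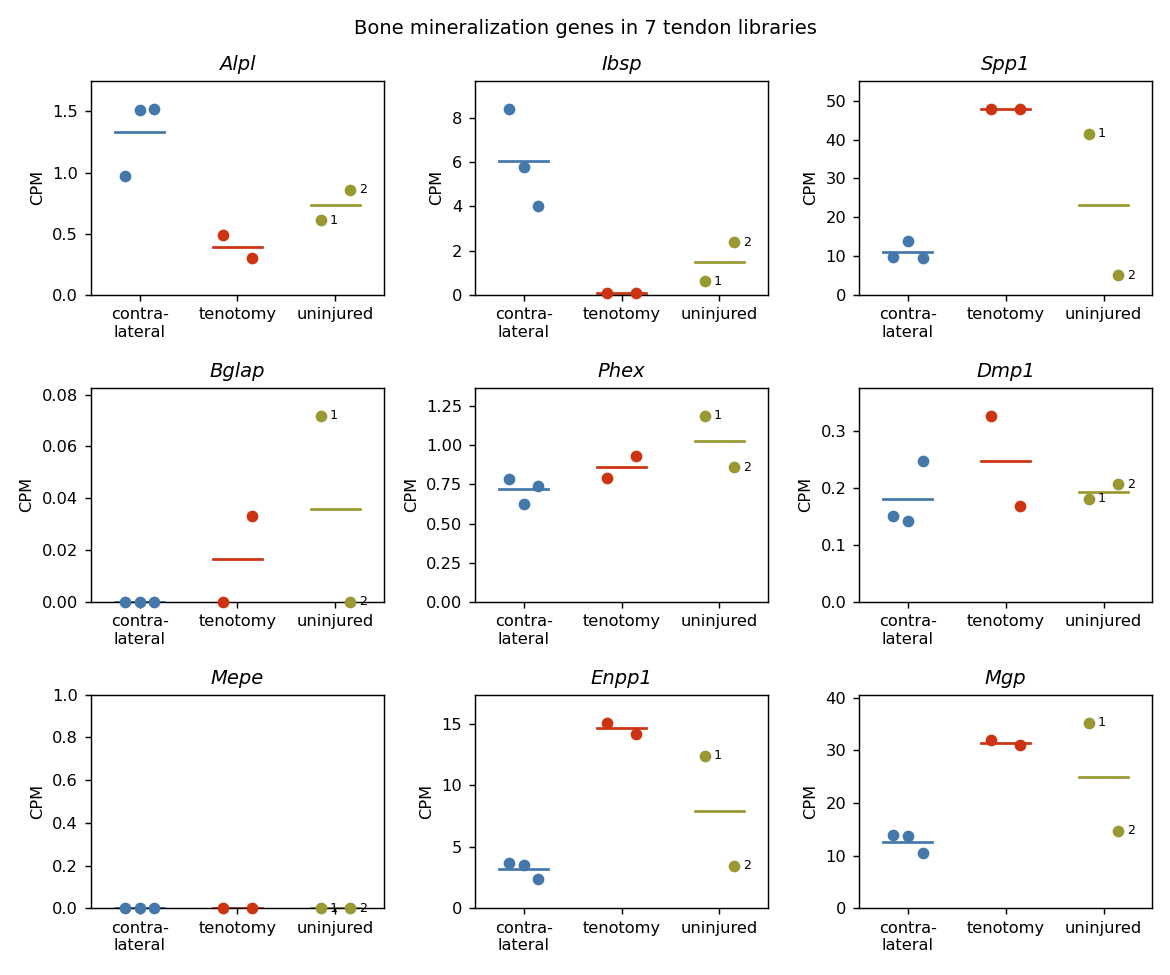
Level of each of the 9 genes in CPM (vertical axes, each starting at 0) in the 3 contralateral, 2 tenotomy and 2 uninjured libraries. Points are libraries, lines are group means, and 1 and 2 mark the uninjured replicates; uninjured replicate 1 lies near the tenotomy points for Spp1, Enpp1 and Mgp, and Mepe is at 0 throughout.

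Against this background, 4 of the 6 members tested were called between tenotomy and contralateral tendon, while the fit called 29.0% of all genes in either direction. Because the genes were chosen with these results known, the share is a description only. The tenotomy libraries lay wholly above the contralateral libraries for Spp1, Phex, Enpp1 and Mgp, as for 31.9% of all genes tested, and wholly below them for Alpl and Ibsp, as for 31.8%. The median log2 fold change of the members tested was 0.79, against -0.00 for all genes. When any 1 contralateral or tenotomy library was left out, 0 of all genes and 0 members passed (4538 to 6148 genes had an unadjusted p-value under 0.05), with log2 fold changes of -6.23 to -5.71 for Ibsp, -2.15 to -1.45 for Alpl, 1.19 to 1.38 for Mgp and 2.02 to 2.31 for Enpp1. Without uninjured replicate 1, or without uninjured replicate 2, 5 of the 7 members then tested were called in this comparison, Spp1 being added, beside 42.9% and 43.5% of all genes. In bulk tissue, fewer cells of a type and less RNA per cell cannot be told apart.

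**Figure D2:**
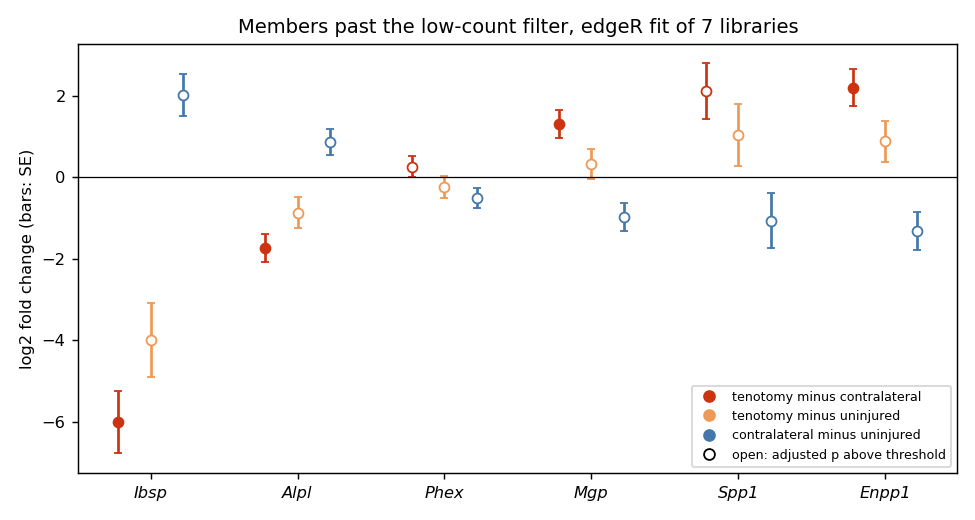
Log2 fold change (vertical axis, bars are SE) of the 6 members that passed the filter on low counts, in the 3 comparisons of the edgeR fit of 7 libraries. Filled points passed the adjusted p-value threshold; these are the tenotomy against contralateral values of Ibsp, Alpl, Mgp and Enpp1.

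When the sample title numbers are used to form series, tenotomy replicate 1 shares a series with the 3 contralateral libraries. Within it, the difference in log2 CPM from the contralateral mean was -5.33 for Ibsp, -1.31 for Alpl, 0.13 for Phex, 1.34 for Mgp, 2.13 for Spp1 and 2.25 for Enpp1. Tenotomy replicate 2, from the next series, differed from the same mean by -5.16, -1.91, 0.36, 1.30, 2.13 and 2.16 for the same genes in the same order. No label calls these series a batch. Between tenotomy replicate 2 and uninjured replicate 1, which share a series, the differences were smaller: -2.04 for Ibsp, -0.89 for Alpl, -0.33 for Phex, -0.19 for Mgp, 0.20 for Spp1 and 0.19 for Enpp1. The third series holds only uninjured replicate 2.

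The comparison of tenotomy with uninjured tendon asked how the injured site stood against mice with no injury. In the fit of 7 libraries 0% of genes were called, members included, although 1741 of 16028 genes and 1 of the members had an unadjusted p-value under 0.05. DESeq2 called 145 genes (0.905%) and no member, and limma-voom called 0. DESeq2 gave Ibsp, Alpl and Phex no adjusted p-value, so it could not call them. Ibsp and Alpl were lower in both tenotomy libraries than in both uninjured libraries, with log2 fold changes of -4.00 (SE 0.90) and -0.87 (SE 0.39). Spp1 and Enpp1 were above both, with 1.04 (SE 0.76) and 0.88 (SE 0.50). Of all genes tested, 20.4% lay wholly lower and 20.1% wholly higher in this comparison. Values for Mgp were 0.33 (SE 0.37) and for Phex -0.25 (SE 0.27). These values depended on which uninjured library was used. Without uninjured replicate 1, Spp1 was at 3.25 (SE 0.24), Ibsp at -4.66 (SE 0.67), Enpp1 at 2.08 (SE 0.22) and Mgp at 1.11 (SE 0.17), and all 4 were called, in a fit that called 25.1% of genes. Alpl was then at -1.08 and Phex at -0.00, neither called. Without uninjured replicate 2, the values were 0.21 for Spp1, -2.71 for Ibsp, 0.24 for Enpp1, -0.16 for Mgp, -0.59 for Alpl and -0.47 for Phex, and none was called, with 0.0830% of all genes called.

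The comparison of contralateral with uninjured tendon asked whether the uncut leg of burned mice differed from that of uninjured mice. The fit again called 0% of genes, with 3084 genes and 4 members at an unadjusted p-value under 0.05. DESeq2 called 223 genes (1.39%), 1 of them the member Ibsp, and limma-voom called 0. DESeq2 gave Alpl and Phex no adjusted p-value, so it could not call them. Ibsp and Alpl stood higher in all contralateral than in both uninjured libraries, with log2 fold changes of 2.01 (SE 0.51) and 0.86 (SE 0.32), and Phex and Mgp lower, with -0.51 (SE 0.25) and -0.98 (SE 0.34). Of all genes tested, 18.9% lay wholly higher and 16.6% wholly lower. The ratio of contralateral to uninjured Ibsp counts was 3.91 (95% exact interval 3.11 to 4.97), or 9.68 (5.99 to 16.7) with uninjured replicate 1 alone and 2.49 (1.94 to 3.25) with replicate 2 alone. For Spp1 and Enpp1 the libraries overlapped, at -1.07 (SE 0.68) and -1.32 (SE 0.46). Without uninjured replicate 2, Alpl, Ibsp, Spp1, Enpp1 and Mgp were all called, at 1.14, 3.29, -1.90, -1.97 and -1.48, in a fit that called 32.0% of genes, and Phex was at -0.73. Without uninjured replicate 1 none was called, with 0.617% of all genes called. Ibsp was then at 1.34, Alpl at 0.65, Enpp1 at -0.13, Mgp at -0.21 and Phex at -0.27, and Spp1 turned to 1.14. All 3 comparisons share libraries with one another, so their values for a gene are not independent.

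Compared with one another on the deposited TPM scale, which corrects for transcript length, Mgp ranked above Spp1 in all 7 libraries, at 3.66 to 15.2 against 0.624 to 5.88 TPM. The third rank changed with the group. It was held by Ibsp in the contralateral libraries, at 0.265 to 0.702 TPM. Enpp1 held it in the tenotomy libraries (0.464 and 0.449 TPM) and in uninjured replicate 1 (0.436 TPM). Alpl held it in uninjured replicate 2 (0.219 TPM), but 0.1559 TPM of this came from 0.713 counts on a transcript of 151 bases. Ibsp followed there at 0.186 TPM, so the rank of Alpl rested on that short transcript. At the tenotomy site Ibsp was at 0.00579 and 0.00791 TPM. Over the 7 libraries, which fall into 2 sets, Enpp1 and Mgp varied together (Pearson r of log2 CPM 0.99), as did Alpl and Ibsp (0.90), and Ibsp and Enpp1 moved against each other (-0.92). These correlations are a description, since the points share the libraries of the 2 sets.

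By the same measure, the genes most like each member, of those reported here, were read from 2018 abundant genes. Ibsp was nearest to Myh11 (0.991), a smooth muscle myosin, Insr (0.986) and Flnc (0.983), and Alpl to Cyp2e1 (0.974), Atp2b4 (0.972) and Mast2 (0.969). Enpp1 was nearest to Tgfbr2 (0.998), a TGF-β receptor, and Dnajc13 (0.997), and Mgp to Colec12 (0.995), Serping1 (0.994) and Kctd12 (0.993). Spp1 was nearest to Tubb5 (0.982), Rps20 (0.982) and Actr2 (0.981), and Phex, with lower values, to Zcchc24 (0.929), Abcc5 (0.900) and Apod (0.855).

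Genes working with the members were taken from 5 lists of 48 genes, of which 32 were tested. The lists were chosen with earlier results known. From each list, up to 4 genes are named because they were called with the largest changes. The adjusted p-values of genes named in this way are thus a description. Between tenotomy and contralateral tendon, 13 of the 32 were higher and 4 lower, with a median log2 fold change of 0.67 beside -0.00 for all genes. The shares of all genes called were 13.6% higher and 15.4% lower, and they apply to each list of genes and markers below. When any 1 contralateral or tenotomy library was left out, 0 of the 32 genes passed (17 to 22 had an unadjusted p-value under 0.05), as was so for the members. With the 2 groups fitted alone, 27 passed, 20 higher and 7 lower, in a fit that called 46.1% of all genes.

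Of the bone matrix and osteoblast genes, 4 of 8 tested were higher and none was lower. Col1a1, a chain of the collagen on which bone mineral is laid down, was at 373 to 478 CPM in contralateral and 2570 and 2580 CPM in tenotomy libraries (log2 fold change 2.55, SE 0.25, edgeR adjusted p = 0.0152). Both uninjured libraries, at 2360 and 2210 CPM, lay close to the tenotomy level. Its partner chain Col1a2 was higher than in contralateral tendon by 2.18 (SE 0.25, edgeR adjusted p = 0.0167). Sparc, which encodes the collagen-binding matrix protein osteonectin, was higher by 1.77 (SE 0.22, edgeR adjusted p = 0.0167). The uninjured libraries, at 1710 and 1490 CPM for Col1a2 and 612 and 512 CPM for Sparc, again lay near the tenotomy level. Against uninjured tendon the log2 fold changes of Col1a2 and Sparc were 0.21 (SE 0.28) and 0.25 (SE 0.24), and neither was called. Runx2, a transcription factor of osteoblasts and hypertrophic cartilage, was higher than in contralateral tendon by 1.77 (SE 0.43, edgeR adjusted p = 0.0225). With length-scaled TPM its edgeR adjusted p was 0.0715. At the tenotomy site Runx2 was at 2.96 and 3 CPM. Uninjured replicate 1, at 3.49 CPM, lay above both, and uninjured replicate 2 was at 1.03 CPM. Sp7, the osteoblast factor that acts downstream of Runx2, had 0 to 4 counts.

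Of the phosphate and pyrophosphate genes, 4 of 11 tested were lower and 1 was higher. Phospho1, a phosphatase that supplies phosphate within matrix vesicles, was at 3.79, 3.76 and 5.97 CPM in contralateral and 0.734 and 0.567 CPM in tenotomy tendon. Its values in the uninjured libraries were 0.503 and 2.79 CPM, and its log2 level fell by 2.77 (SE 0.62, edgeR adjusted p = 0.0189). Ank, which exports pyrophosphate or its precursor from cells, was at 14.3, 16.8 and 17.5 CPM in contralateral and 6.2 and 7 CPM in tenotomy tendon. Its log2 level was lower by 1.30 (SE 0.25, edgeR adjusted p = 0.0167). The phosphate transporter gene Slc20a2 was lower by 1.88 (SE 0.41, edgeR adjusted p = 0.0184). Uninjured replicates 1 and 2 held 6.9 and 12.2 CPM of Ank and 2.37 and 6.78 CPM of Slc20a2. Enpp2, named after its value was seen, fell by 0.71 (SE 0.22, edgeR adjusted p = 0.0428) but missed the threshold with DESeq2, upper quartile scaling and length-scaled TPM. Tmem119, known as an inducer of osteoblast differentiation and as a marker of microglia, was higher by 2.69 (SE 0.58, edgeR adjusted p = 0.0179). It was at 5.79 and 6.03 CPM at the tenotomy site and at 5.68 and 1.07 CPM in uninjured replicates 1 and 2.

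Of the osteocyte and phosphate hormone genes, 2 of 4 tested were higher than in contralateral tendon. Pdpn, a membrane glycoprotein of early osteocytes and of other stromal cells, was higher by 2.30 (SE 0.48, edgeR adjusted p = 0.0171). It was at 4.57 and 4.63 CPM at the tenotomy site and at 5.17 and 1.34 CPM in uninjured replicates 1 and 2. Cd44, a receptor for hyaluronan and osteopontin, was higher by 1.89 (SE 0.32, edgeR adjusted p = 0.0167). Its values were 17.4 and 15.7 CPM at the tenotomy site and 12.8 and 5.64 CPM in the uninjured libraries. Fam20c, the kinase that phosphorylates secreted matrix proteins, was at -0.25 (SE 0.20) and was not called. Fgf23 had 0 to 2 counts and Sost had 0 in every library. Of the calcification inhibitors and vitamin K cycle genes, 3 of 5 tested were higher, namely Vkorc1 at 1.64, Gas6 at 1.26 and Ggcx at 0.71. Their edgeR adjusted p-values were 0.0167, 0.0225 and 0.039. At the tenotomy site they were at 2.77 and 3.5, 41.6 and 43.2, and 4.16 and 4.4 CPM. Uninjured replicates 1 and 2 held 2.95 and 1.69, 39.3 and 17.3, and 4.74 and 3.1 CPM. Vkorc1 and Ggcx encode enzymes of the carboxylation that Mgp needs; Ggcx missed the threshold with DESeq2 and with length-scaled TPM. Of 4 annexins of matrix vesicles, Anxa1, Anxa2 and Anxa5 were higher by 1.60, 1.46 and 1.32 (edgeR adjusted p = 0.0167, 0.0167 and 0.0183). At the tenotomy site these were at 22.6 and 23.7, 32.1 and 33.6, and 24.4 and 25.4 CPM. Uninjured replicates 1 and 2 held 16.8 and 6.99, 23.8 and 12.8, and 21.8 and 9.98 CPM. Anxa6 was at -0.43 and was not called. Against uninjured tendon 0 of the 32 genes were called, with a median of 0.20, and between contralateral and uninjured tendon 0, with a median of -0.54. Without uninjured replicate 1, 11 were higher and 6 lower at the tenotomy site than in uninjured tendon (median 0.40), and 0 higher and 3 lower in contralateral tendon (median -0.18). Without uninjured replicate 2 these counts were 0 and 0 (median 0.08), and 4 and 18 (median -0.85).

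**Figure D3:**
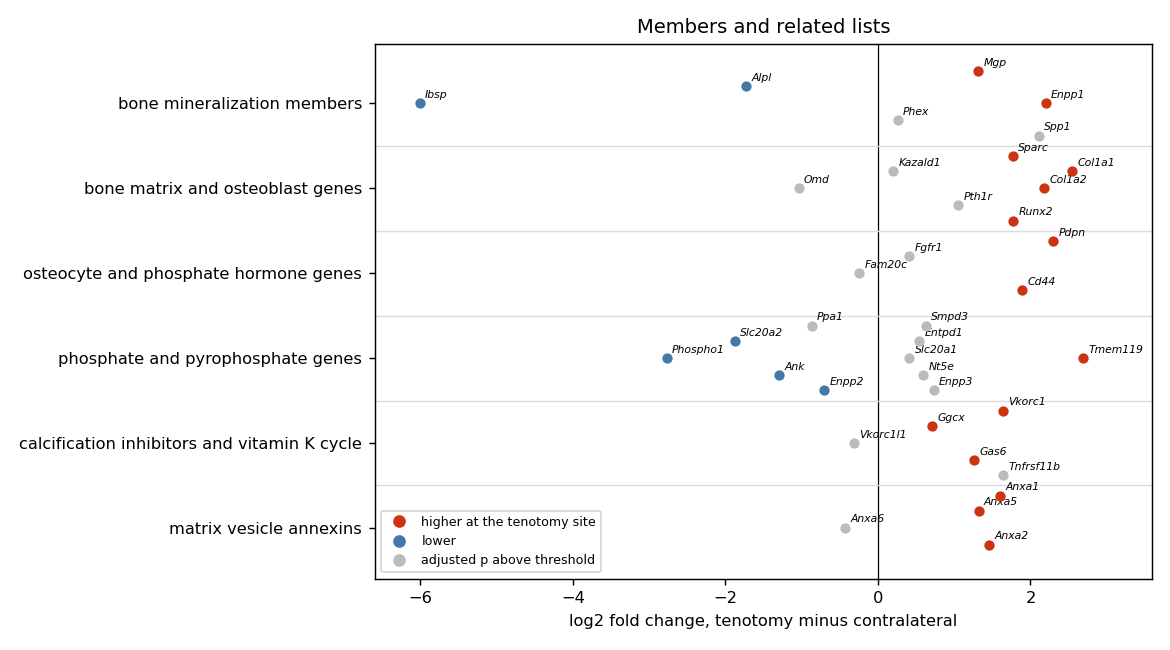
Log2 fold change (horizontal axis, tenotomy minus contralateral) of the 6 members tested and of the tested genes of 5 related lists, each point 1 gene, with 1 gene that was not called left out of the plot. Colour gives the call of the edgeR fit of 7 libraries; of the phosphate and pyrophosphate list, 4 genes are called lower and 1 higher.

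Marker lists of other cell types moved with the same comparison. Summed over 8 skeletal muscle markers, the level was 6920 to 9460 CPM in contralateral and 819 to 823 CPM in tenotomy libraries, and 999 and 7290 CPM in uninjured replicates 1 and 2. All 8 were called lower. Chondrocyte markers, 6 of 8 tested called higher, summed to 22.2 to 42.5, then 315 to 320 CPM, with 137 and 30 CPM in the uninjured libraries. Comp, which was not called, held 39.7, 24 and 19.6 CPM of the contralateral sums and 25.4 CPM in uninjured replicate 2. It was at 48.7 and 48.9 CPM at the tenotomy site. Col2a1 was at 0.402 to 0.655 CPM in contralateral and at 126 and 125 CPM in tenotomy libraries. Macrophage markers, 8 of 9 called higher, summed to 29.2 to 35.1 and 139 to 145 CPM. Osteoclast markers, 3 of 5 tested called higher, summed to 6.25 to 7.09 and 30.7 to 31.9 CPM. Ctsk alone held 25.4 and 26 CPM of the osteoclast sum at the tenotomy site, and Acp5 and Ocstamp were not called. Tendon markers, 3 of 6 called higher, summed to 153 to 252 and 318 to 322 CPM, and each of the 6 had counts in every library. Most of the sum was Fmod and Thbs4, neither called, at 137 and 95.9 CPM in contralateral replicate 1. Scx, which was called higher, had 15 to 22 counts in contralateral libraries and 49 and 52 at the tenotomy site.

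Smooth muscle and pericyte markers, 5 of 6 called lower, went from 191 to 215 down to 84.6 to 85.5 CPM, and adipocyte markers, 2 of 5 called lower, from 118 to 147 down to 58.1 to 58.3 CPM. Endothelial markers differed little (46.5 to 50.8 and 42.2 to 42.4 CPM, 1 of 5 called lower). Marrow and blood markers, 2 of 5 tested called higher, summed to 42.1 to 47.7 and 62.8 to 66.3 CPM. Skin markers were below the filter, with a sum of 0.862 CPM in uninjured replicate 1, where Krt14 had 12 counts and Krt5 had 8, and 0.187 to 0.275 CPM in the other libraries. Of the 5 skin markers, Krt1 was at 0 in every library. The part of these cell types in the values of the members was not tested.

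**Figure D4:**
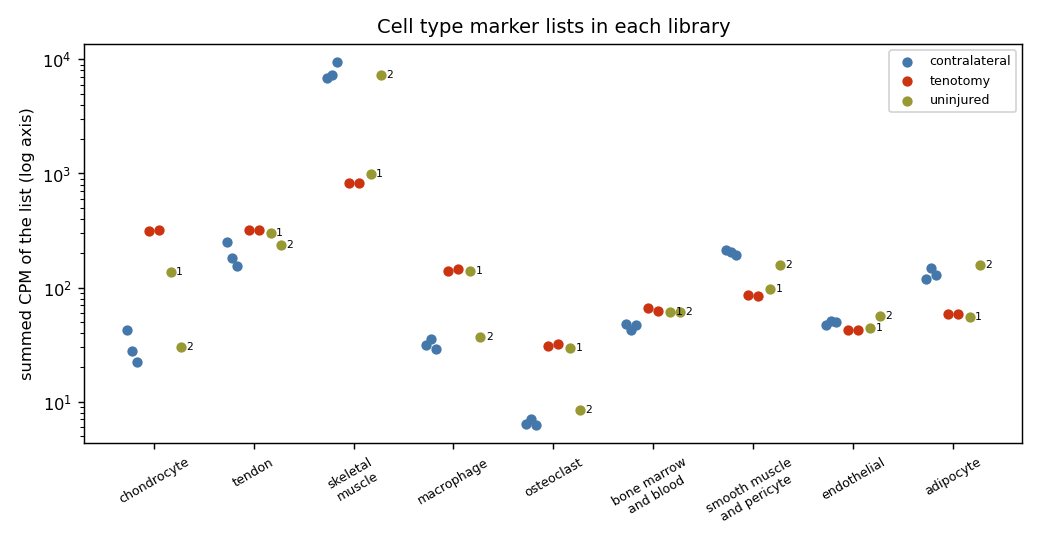
Summed CPM of each cell type marker list (vertical axis, log scale) in the 7 libraries, each point 1 library, with 1 and 2 marking the uninjured replicates. The skeletal muscle sum is lower and the chondrocyte, macrophage and osteoclast sums are higher in both tenotomy libraries than in the contralateral libraries. Most of the osteoclast sum at the tenotomy site is Ctsk, and most of the chondrocyte sum in the contralateral libraries is Comp. Uninjured replicate 1 lies near the tenotomy points for muscle, macrophage and osteoclast markers.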

How the data were processed

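RNA of 7 tendon libraries was analysed from the authors' transcript tables, which per the file headers hold length, effective length, estimated counts and TPM. The submitters' processing notes name FastQC 0.11.4, kallisto and the build GRCh38, a human one, although every transcript ID is a mouse Ensembl ID; the annotation release is not given in the sources used here. The deposited estimated counts are not normalized, and the deposited TPM are scaled by length and library.

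Of 103639 transcripts, 101510 matched GENCODE M21 (GRCm38) by ID without version; the other 2129 were kept as single features. Estimated counts were summed per gene and rounded, giving 44818 features, 42689 of them genes. After filterByExpr (minimum count 10), 16028 features, called genes, were tested in 1 fit of all 7 libraries with edgeR 4.0.16 in R 4.3.3 (TMM, quasi-likelihood test, 3 group means, Benjamini-Hochberg threshold 0.05). Log2 CPM used a prior count of 2, and the SE is the fold change over the square root of F. The fit was tested on simulated data. Floors use 3 counts.

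The members and all lists were chosen with earlier results of these data known. Named genes are all members; from each related list, up to 4 called genes with the largest change and a few fixed names; the 3 genes most like each member; and the cluster neighbours on chromosome 5. Values of 2 genes that this rule or the lists hold are not reported here, although counts over lists include them. Alternatives were other scalings, DESeq2 1.42.0, limma-voom (limma 3.58.1), no filter, a fit of only the groups compared, title series as a covariate, length-scaled TPM, removal of the 5 most abundant features and leaving out each library.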

Additional observations from a re-analysis of the deposited data

How the results depend on the processing

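Between tenotomy and contralateral tendon, main counts were 4 members, 17 related genes and 4643 genes. Fitting only these groups gave 7385 genes and 27 related genes. Leaving out 1 library gave 0 to 5 members, 0 to 27 related genes and 0 to 7336 genes; it was 0 without any contralateral or tenotomy library, though the 6 members with a main value kept their direction. Over all alternatives, member fold changes kept direction and call 67 times, lost the call 21 times and gained it 8 times, all for Spp1.

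Between tenotomy and uninjured tendon, no filter gave 1 member and 15 genes, DESeq2 145 genes and the title series covariate 4. Leaving out 1 library gave 0 to 4 members and 0 to 4275 genes. Mgp was at 1.11 without uninjured replicate 1 but reversed to -0.19 with the series covariate and to -0.16 without uninjured replicate 2. Between contralateral and uninjured tendon, DESeq2 gave 1 member and 223 genes, no filter 1 member and 337 genes, and the series covariate 3 members and 2466 genes. Leaving out 1 library gave 0 to 5 members and 0 to 5393 genes, and Spp1, at -1.90 without uninjured replicate 2, reversed to 1.14 without replicate 1. The cause was not tested. In the series fit the uninjured group rests on replicate 1 alone, and tenotomy against contralateral rests on tenotomy replicate 1 alone. Only the contralateral libraries give a spread there, so its calls, that of Spp1 included, do not rest on replicated tenotomy libraries. A group left with 1 library is assumed to vary like the others. Upper quartile scaling shifted the median log2 fold change of all genes by 0.11. Settings for the related genes were chosen after seeing the data. Summing the Bglap copies gave no fitted value, being below the filter. No paired analysis was possible because the labels give no replicate numbers, only the accession order.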

Other observations

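Mmp13, a collagenase of hypertrophic cartilage and osteoblasts, had 0, 1 and 3 counts in the contralateral libraries, 1111 and 933 at the tenotomy site, and 641 and 2 in the uninjured libraries. Col10a1, the collagen of hypertrophic cartilage, had 9 to 22 counts in every library and a log2 fold change of -0.17 (SE 0.44) between tenotomy and contralateral tendon, which was not called. Ihh, a signal from prehypertrophic cartilage, had 0 to 1 counts. Among osteoclast genes, Ctsk, the main collagen-degrading protease of osteoclasts, was called higher by 2.99 (SE 0.62), whereas Acp5, their acid phosphatase, was at -0.22 and was not called. These genes were picked after their values were seen.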
